A study of Mus musculus with 12 samples.

Results

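The FOS and JUN genes, which encode the subunits of the transcription factor AP-1, were followed in the hippocampus of 12 mice, each with its own Affymetrix Mouse Gene 1.0 ST array. The family was taken as 7 genes, Fos, Fosb, Fosl1, Fosl2, Jun, Junb and Jund, out of 19938 genes with a probe set of their own on the array, and each member had 1 probe set that the platform annotation assigns to it alone. The 4 groups held 3 mice each. Srf mutants with pilocarpine carried 2 floxed Srf alleles, received 335 or 350 mg/kg pilocarpine after methyl scopolamine, and had seizures that did not become a status epilepticus (SE). The labels say only that these mice had seizures, and that they had no SE follows from the group sizes in the study's methods. Srf mutant controls had the same genotype, received Ringer solution and had no seizure. Heterozygous mice with SE carried 1 floxed and 1 intact Srf allele and received pilocarpine, also 335 or 350 mg/kg, after methyl scopolamine. Which of the doses each mouse received is not given in the sources used here. The heterozygous mice with SE were taken after 40 min of SE. The labels of all groups also describe diazepam (4 mg/kg) given to end an SE at that time, and the methods say that mice were either killed at 40 min of SE or given diazepam, so whether any of these mice received it is not settled by the sources used here. Heterozygous controls had that genotype, received no pilocarpine and had no seizure. For control mice the study's methods name Ringer solution. All 4 groups carried the tamoxifen-inducible CaMKCreERT2 transgene, which deletes floxed Srf in glutamatergic forebrain neurons, had been given tamoxifen, were 7 to 10 weeks old and on a C57/Bl6 background, and the study used males and females. The labels name the heterozygous mice as controls or WT, but these mice had lost 1 Srf allele in Cre-expressing neurons, and other cells of the hippocampus kept Srf in every group. Mutants that reached SE were not analysed here, so the genotype and the presence of SE cannot be told apart in any comparison of mutant with heterozygous mice after pilocarpine. When the mutants without SE were killed is not given in the sources used here.

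AP-1 is a dimer of basic leucine zipper proteins. FOS proteins (FOS, FOSB, FOSL1 and FOSL2) cannot form stable dimers with each other and bind DNA together with a JUN protein, whereas JUN, JUNB and JUND can also pair among themselves. Most of these genes are immediate early genes, whose transcription in neurons follows calcium influx and MAP kinase activity within minutes and needs no new protein synthesis. SRF, together with ternary complex factors such as ELK1, and CREB are the factors best known to switch on Fos, and FOS protein has long been used to mark neurons that were active during a seizure.

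The promoters of Fos, Fosb, Jun and Junb are shown because these genes cover the range from the steepest to a modest response in the family. The sequences are from RefSeq (GRCm38.p6) and run from 250 bases before to 50 bases after the annotated start of transcription. Of the 7 members, 6 had an entry. Capitals mark matches on either strand to TGACG, the core of a CREB site, to TGACATCA, the AP-1-like site known from the Jun promoter, and to TATAAA.
Fos (chr12:85473640-85473939, plus strand): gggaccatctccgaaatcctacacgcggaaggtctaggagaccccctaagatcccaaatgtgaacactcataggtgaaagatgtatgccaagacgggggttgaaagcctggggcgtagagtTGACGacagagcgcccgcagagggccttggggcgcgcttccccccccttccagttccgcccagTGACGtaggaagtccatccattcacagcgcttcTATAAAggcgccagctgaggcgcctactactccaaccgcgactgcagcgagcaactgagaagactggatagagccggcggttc
Fosb (chr7:19309996-19310295, minus strand): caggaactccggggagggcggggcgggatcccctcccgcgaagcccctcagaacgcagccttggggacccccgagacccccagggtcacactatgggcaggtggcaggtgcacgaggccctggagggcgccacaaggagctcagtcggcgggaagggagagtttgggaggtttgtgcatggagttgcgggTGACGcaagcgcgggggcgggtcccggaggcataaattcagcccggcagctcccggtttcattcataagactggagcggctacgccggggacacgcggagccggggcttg
Jun (chr4:95052173-95052472, minus strand): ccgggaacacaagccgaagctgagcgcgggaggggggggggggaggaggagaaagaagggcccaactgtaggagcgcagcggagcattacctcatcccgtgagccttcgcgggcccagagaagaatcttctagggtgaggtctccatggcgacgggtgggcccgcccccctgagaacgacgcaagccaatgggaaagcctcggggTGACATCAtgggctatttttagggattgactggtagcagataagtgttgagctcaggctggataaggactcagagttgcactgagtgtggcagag
Junb (chr8:84978699-84978998, minus strand): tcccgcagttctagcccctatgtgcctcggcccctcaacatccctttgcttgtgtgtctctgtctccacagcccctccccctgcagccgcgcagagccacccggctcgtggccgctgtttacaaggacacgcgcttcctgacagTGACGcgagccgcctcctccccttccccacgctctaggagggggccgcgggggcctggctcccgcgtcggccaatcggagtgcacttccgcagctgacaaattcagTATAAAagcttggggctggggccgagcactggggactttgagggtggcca
Fos held TGACG at 129 and at 66 bases before the start and TATAAA at 33 bases before it. Fosb held TGACG at 60 bases and Junb at 106 bases before the start, and Jun held TGACATCA at 45 bases before it. TGACG lay in 3 of the 6 member promoters and in 20.8% of all 32851 promoters of this length, TGACATCA in 1 of 6 and in 3.62% of all, and TATAAA in 2 of 6 and in 13.6% of all. In Junb, TATAAA began at base 1 after the annotated start. The full CREB site TGACGTCA, which contains TGACG, was in 0 of 6 windows and in 1.79% of all promoters, the AP-1 site TGANTCA in 0 of 6 and in 7.81% of all, and the CArG box bound by SRF in 0 of 6 and in 1.63% of all. These are matches of letters in a short window only, and sites further from the start were not searched. The study's chromatin immunoprecipitation found SRF at the Fos promoter in the hippocampus of heterozygous mice.

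The values were deposited by the authors as robust multiarray average (RMA) values on a log2 scale, in which 1 unit is a 2-fold difference. Array medians lay between 6.78 and 6.86. Srf had 8.90, 8.90 and 8.83 in mutants with pilocarpine, 8.80, 8.94 and 8.96 in mutant controls, 10.16, 10.20 and 10.27 in heterozygous mice with SE and 9.59, 9.53 and 9.60 in heterozygous controls (log2) and was thus lower in each mutant than in any heterozygous mouse. The female transcript Xist was above 9 (log2) on 1, 2, 0 and 1 of 3 arrays in the same order of groups. Of 35 marker genes of neurons, glia, vessels, blood and choroid plexus, 32 were measured, and with limma 0 of these were called in the mutants, where 7 had an unadjusted p under 0.05. In heterozygous SE 6 had such a p and 3 were called, all lower, the microglial Cx3cr1 (-0.19) and P2ry12 (-0.23) and the endothelial Tek (-0.45, log2), against 6.93% of all probe sets. Between mutants with pilocarpine and heterozygous SE 11 had such a p and 2 were called, both higher, against 5.39% of all probe sets. All 4 dentate granule cell markers were among the 11 and were not called, with log2 differences, mutant minus heterozygous, of -0.31 for Prox1, -0.40 for Dsp, -0.25 for C1ql2 and 0.26 for Calb1. Their part in the results was not tested. The defining markers of hippocampal neurons were present, with a summed level of 12.45 to 12.76 (log2) over all arrays for dentate granule cells and of 12.61 to 12.84 for pyramidal cells.

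All 7 AP-1 genes rose in heterozygous mice with SE, by 1.38-fold for Fosl1 to 40.5-fold for Fos. All 4 FOS genes and all 3 JUN genes were called higher with limma at an adjusted p under 0.05, where 5.08% of the 23410 probe sets tested were called higher. Of the 7, 6 also passed the stricter limits that the study's methods set (2-fold or more, adjusted p under 0.001), which 0.636% of all probe sets passed as higher. In what follows, a log2 fold change is given with its standard error after the ± sign, and adjusted p values are from limma. The median log2 fold change of the members was 2.26, against -0.026 over all probe sets. In every member the 3 SE arrays lay above the 3 controls, a pattern that 10.6% of all probe sets showed. In whole hippocampus, fewer cells that express a gene and less RNA per cell cannot be told apart.

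Fos, the founding immediate early gene of the family, had 12.02, 11.98 and 12.06 (log2) in heterozygous mice with SE and 6.65, 6.62 and 6.77 in heterozygous controls. The groups were far apart, and the animals of each group lay close together. This was a log2 fold change of 5.34 ± 0.12 (adjusted p = 3.09e-11). Fosb, whose truncated splice form deltaFOSB is known to persist in neurons after repeated activity, had 13.20, 13.08 and 13.10 in SE and 7.96, 7.87 and 7.78 in controls. Its log2 fold change was 5.26 ± 0.15 (adjusted p = 1.53e-10), and the 95% confidence intervals of Fos (5.07 to 5.61) and Fosb (4.94 to 5.57) overlapped. The single probe set of Fosb gives no separate value for its splice forms. Fos and Fosb ranked 2 and 3 among 19938 genes by log2 fold change.

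Fosl2 encodes FRA-2, a FOS protein without the strong activation domain of FOS and FOSB. It had 11.84, 12.18 and 12.13 (log2) in heterozygous mice with SE and 9.78, 9.73 and 9.85 in heterozygous controls, which gave a log2 fold change of 2.26 ± 0.095 (adjusted p = 7.47e-09). The SE animals varied more than the controls, and the groups were clearly apart. Fosl1, which encodes the related FRA-1, had 6.66, 6.79 and 6.35 in SE and 6.16, 6.16 and 6.07 in controls. The SE animals varied widely, and the lowest of them lay just above the controls. The probe set of Fosl1 was the only one of the family that a filter on dim probe sets left out. The log2 fold change was 0.47 ± 0.09 (adjusted p = 0.00385), the smallest of the 7.

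Among the JUN genes, Junb moved most. JUNB is an inducible partner of FOS and a weaker activator than JUN. It had 11.76, 11.77 and 11.67 (log2) in heterozygous mice with SE and 8.40, 8.31 and 8.47 in heterozygous controls, which gave a log2 fold change of 3.34 ± 0.076 (adjusted p = 3e-11). Jun, the main activating partner of FOS and a substrate of the JNK kinases, had 12.75, 12.84 and 12.95 in SE and 11.17, 11.19 and 11.20 in controls. The 3 controls of Jun differed by only 0.03 from lowest to highest, and the log2 fold change was 1.66 ± 0.056 (adjusted p = 1.07e-09). Jund, which most cells transcribe at rest, had 11.56, 11.72 and 11.61 in SE and 10.64, 10.43 and 10.55 in controls. It rose as well, with a log2 fold change of 1.09 ± 0.061 (adjusted p = 1.2e-07), or 2.13-fold.

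**Figure D1:**
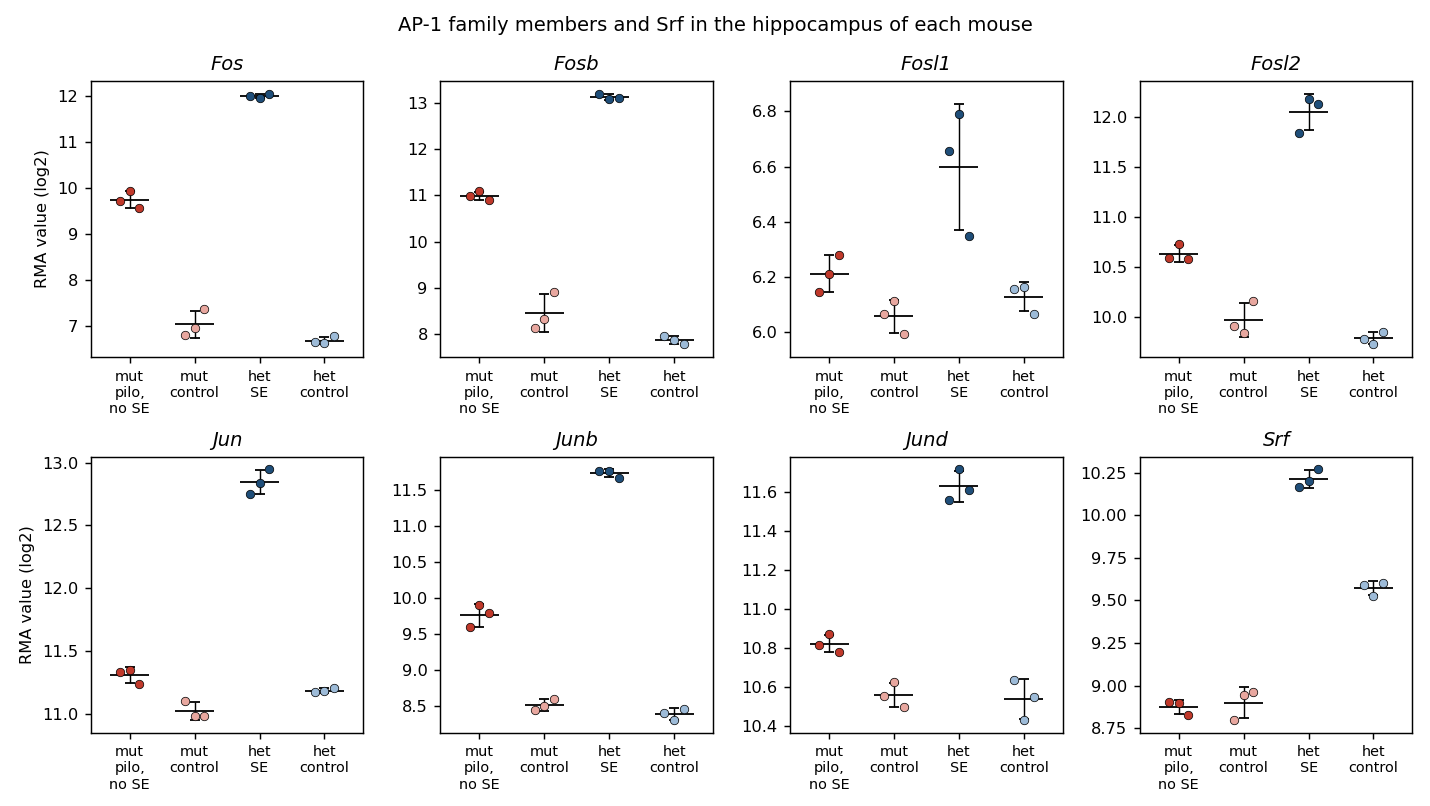
RMA values (log2, vertical axes with a scale of their own per gene) of the 7 AP-1 genes and Srf for all 12 mice, sorted by group. Each point is a mouse, with the mean of its group as a bar and the SD as error bar (n = 3 each); in every AP-1 gene the 3 heterozygous SE mice are the highest of the 12, and Fos of mutants with pilocarpine lies at 9.58 to 9.95 between both sets of controls and SE.

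The size of the response ordered the family as Fos, Fosb, Junb, Fosl2, Jun, Jund and Fosl1. Apart from Fos and Fosb, the 95% confidence intervals of neighbours in this order did not overlap. The 3 JUN genes thus stood between the 2 steepest FOS genes and Fosl1, with Fosl2 between Junb and Jun. Probe sets differ in how closely their signal follows the amount of RNA, so the order is one of measured changes.

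In Srf mutants with pilocarpine, which had no SE, 5 of the 7 genes rose, Fos, Fosb, Fosl2, Junb and Jun, by 1.22-fold to 6.57-fold. Over all probe sets 0.871% were called higher in this comparison (limma, adjusted p under 0.05). At the limits of the study's methods, 3 members passed, Fos, Fosb and Junb, against 0.0726% of all probe sets. The median log2 fold change of the 7 members was 0.66, against -0.004 over all probe sets. In all 7 members the 3 mice with pilocarpine lay above the 3 mutant controls, as did 7.04% of all probe sets.

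Fos had 9.73, 9.95 and 9.58 (log2) in mutants with pilocarpine and 6.79, 6.96 and 7.36 in mutant controls, a log2 fold change of 2.72 ± 0.12 (adjusted p = 3.85e-07). Fosb had 10.98, 11.09 and 10.90 in mutants with pilocarpine and 8.13, 8.34 and 8.91 in mutant controls, a log2 fold change of 2.53 ± 0.15 (adjusted p = 2.96e-06). In both genes the controls were spread more widely than the mice with pilocarpine, with the third control the highest. As in SE, Fos and Fosb ranked 2 and 3 of 19938 genes.

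Junb had 9.59, 9.91 and 9.79 (log2) in mutants with pilocarpine and 8.44, 8.51 and 8.61 in mutant controls, and rose by a log2 fold change of 1.24 ± 0.076 (adjusted p = 3.17e-06). Fosl2 had 10.59, 10.73 and 10.58 in mutants with pilocarpine and 9.91, 9.84 and 10.16 in mutant controls. Its groups were separated but closer than those of Junb, with a log2 fold change of 0.66 ± 0.095 (adjusted p = 0.0042). Jun had 11.34, 11.35 and 11.24 in mutants with pilocarpine and 11.11, 10.98 and 10.98 in mutant controls. This was a log2 fold change of 0.29 ± 0.056 (adjusted p = 0.0254), a call that was lost in 8 of 21 other settings, among them without mutant control replicate 2 or 3 and without replicate 1 or 2 of the mutants with pilocarpine, at adjusted p of up to 0.101.

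Jund and Fosl1 were not called. Jund had 10.82, 10.87 and 10.78 (log2) in mutants with pilocarpine and 10.56, 10.63 and 10.50 in mutant controls, a log2 fold change of 0.26 (95% confidence interval 0.13 to 0.39, adjusted p = 0.0516). The groups did not overlap, and the gene was called in 6 of 21 other settings, so that it lay at the threshold. Fosl1 had 6.14, 6.21 and 6.28 in mutants with pilocarpine and 6.07, 6.11 and 5.99 in mutant controls, a log2 fold change of 0.15 (95% confidence interval -0.041 to 0.35, adjusted p = 0.47). The 7 genes came in the same order by response as in SE. In the mutants, however, the intervals of Jun, Jund and Fosl1 overlapped between neighbours, as did those of Fos and Fosb.

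The responses of 6 members were smaller in mutants without SE than in heterozygous mice with SE. The difference of the log2 fold changes, mutant minus heterozygous, was tested as an interaction in limma, and 6 of 7 members passed as lower, against 2.12% of all probe sets. At the study's stricter limits 5 passed as lower, against 0.376% of all. The difference was -2.72 for Fosb (standard error 0.21, adjusted p = 7.57e-06) and -2.62 for Fos (standard error 0.17, adjusted p = 2.46e-06), and the intervals of these 2 genes overlapped. It was -2.09 for Junb (standard error 0.11), -1.60 for Fosl2 (standard error 0.13), -1.37 for Jun (standard error 0.08) and -0.83 for Jund (standard error 0.086), with adjusted p of at most 0.00013. Fosl1 had -0.32 (95% confidence interval -0.59 to -0.041, adjusted p = 0.234) and did not pass. Without heterozygous SE replicate 3, the SE animal with the lowest Fosl1, the difference of Fosl1 was -0.44 (adjusted p = 0.0182).

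**Figure D2:**
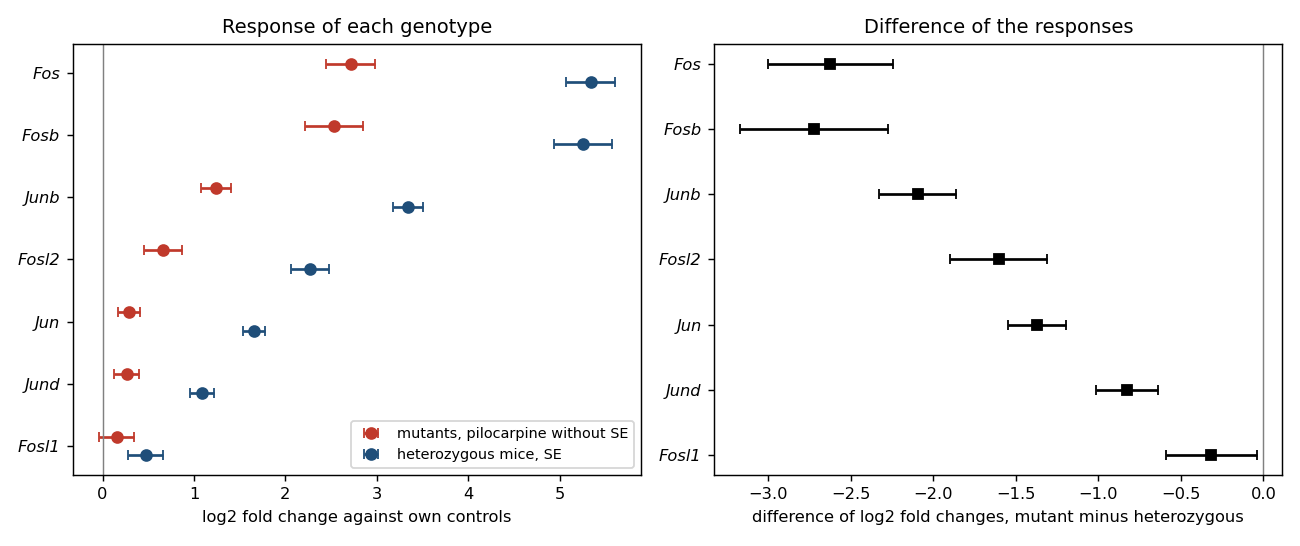
Left, log2 fold change of each AP-1 gene against the controls of the same genotype, for Srf mutants with pilocarpine without SE and for heterozygous mice with SE; right, the difference of both responses (log2, mutant minus heterozygous). Points are limma estimates and bars 95% confidence intervals (n = 3 mice per group); the mutant response of Fos is 2.72 and the heterozygous 5.34, and for Fosl1 the intervals of both responses overlap.

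Set against the heterozygous response, the mutant response was smaller in the 6 members that passed the test of the difference. On the log2 scale it was 50.9% of the heterozygous response for Fos, 48.2% for Fosb, 37.3% for Junb, 29.2% for Fosl2, 24.1% for Jund and 17.3% for Jun. No share is given for Fosl1, whose mutant response had an interval that included 0. As folds, Fos rose 6.57-fold in the mutants and 40.5-fold in heterozygous mice, Junb 2.37-fold and 10.1-fold, and Jun 1.22-fold and 3.16-fold. The shares are given as a description, since their differences between members were not tested.

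Compared directly, mutants with pilocarpine had lower levels of all 7 genes than heterozygous mice with SE. The 3 mutants lay below the 3 heterozygous mice in each gene, as 12.8% of all probe sets did, and 4.72% of all probe sets were called lower and 5.39% higher. These arrays are the same as in the responses above, so the comparison adds no independent mice. The log2 difference, mutant minus heterozygous, was largest in Fos with -2.27 ± 0.12 (adjusted p = 1.94e-07), followed by Fosb with -2.13, Junb with -1.97, Jun with -1.54, Fosl2 with -1.42 and Jund with -0.81. These 6 had adjusted p of at most 3.49e-06. Fosl1 had -0.39 ± 0.09 (adjusted p = 0.0152), a call that was lost with only these groups in the fit and without heterozygous SE replicate 1 or 2 or replicate 1 of the mutants with pilocarpine (adjusted p up to 0.0704).

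**Figure D3:**
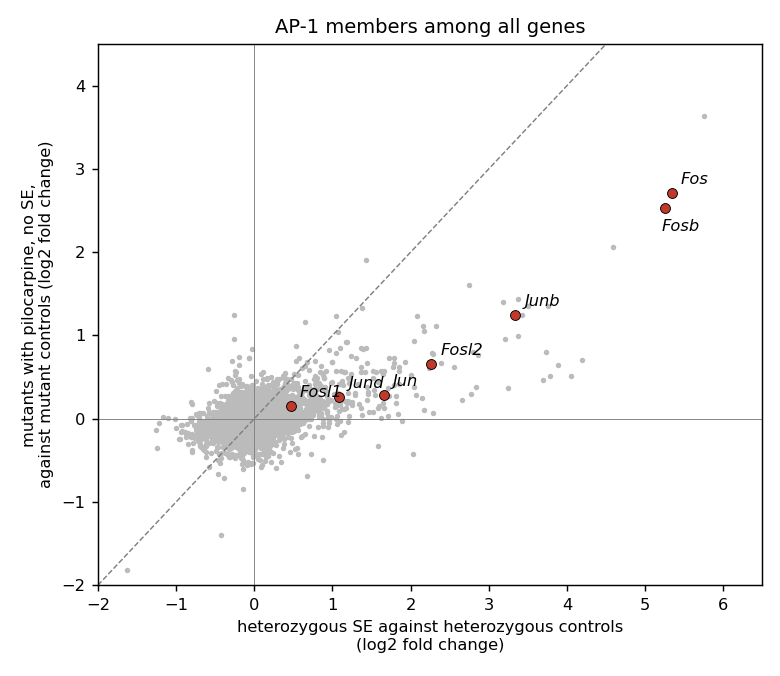
Log2 fold change of 19938 genes in heterozygous mice with SE (horizontal axis) and in Srf mutants with pilocarpine without SE (vertical axis), each against controls of its own genotype, with the AP-1 genes in red; the dashed line marks equal responses. All 7 members lie below the dashed line, and Fos and Fosb are near the right edge with 5.34 and 5.26 on the horizontal axis.

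Without seizure, 0 of the 7 genes were called between mutant and heterozygous controls with limma, where 0.0384% of all probe sets were called higher and 0.0812% lower. At an unadjusted p under 0.05, Fos and Fosb were higher and Jun was lower in the mutants. Fosb, with the values of controls given above, had a log2 difference of 0.59 (95% confidence interval 0.27 to 0.91, adjusted p = 0.319) and Fos one of 0.36 (0.089 to 0.63, adjusted p = 0.475). In both, all 3 mutant controls lay above all 3 heterozygous controls, as did 6.1% of all probe sets. Without mutant control replicate 3, the highest in Fos, Fosb, Fosl2 and Junb, the difference was 0.36 for Fosb and 0.20 for Fos. Jun was the only member with the mutant controls below the heterozygous controls, with a difference of -0.16 (95% confidence interval -0.29 to -0.04, adjusted p = 0.475), and 7.46% of all probe sets showed that separation. Fosl2, Junb, Jund and Fosl1 overlapped between the genotypes, with differences of 0.19, 0.13, 0.02 and -0.07 (log2).

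The spread between mice differed by gene and group. Fos had an SD of 0.19 in mutants with pilocarpine and 0.29 in mutant controls, and of 0.043 in heterozygous mice with SE and 0.081 in heterozygous controls (n = 3 each). Fosb had its widest group in the mutant controls, with an SD of 0.4, against 0.091 in heterozygous controls. Among mutants with pilocarpine, replicate 2 was the highest in 6 of 7 genes, Fosl1 being the exception. The differences between these mice were small beside the responses of Fos, Fosb, Junb and Fosl2, and 0.37 was the widest range of any member in that group, in Fos. Jun and Jund had ranges of 0.11 and 0.09, against log2 fold changes of 0.29 and 0.26, and Fosl1 had 0.13 against 0.15.

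To find the genes nearest to each member, every gene was centred on its mean over the 12 arrays. The measure was the root mean square difference from the member, in log2 units. Values were not scaled, so this measure depends on the size of the responses, and genes with responses of similar size come out as near. Fos and Fosb were nearest to each other, with a difference of 0.149, while their own SD over the arrays was 2.27 and 2.2. The next for both were Npas4, a neuronal transcription factor driven by calcium, with 0.448 from Fos and 0.5 from Fosb, and Ccn1, a secreted matricellular protein, with 0.448 and 0.461. Junb was nearest to Gadd45b, a growth arrest and stress gene (0.145), Nr4a1, an orphan nuclear receptor (0.158), and Gem, a small GTPase (0.175). Fosl2 lay nearest to Rgs2, a regulator of G protein signalling (0.106), the ERK phosphatase gene Dusp5 (0.119) and Nr4a3 (0.148).

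Jun kept company with other genes. Its nearest were Slc16a1, a monocarboxylate transporter (0.112), Siah2, a ubiquitin ligase (0.113), and Rassf1, a tumour suppressor (0.125). Siah2 had log2 fold changes of 0.04 in mutants with pilocarpine and 1.71 in heterozygous SE, Slc16a1 of 0.38 and 1.71, and Rassf1 of 0.27 and 1.81. Jund was nearest to Irf2bp2, a transcriptional corepressor (0.0612), Zbtb10, a zinc finger gene (0.0943), and Ch25h, an oxysterol-forming hydroxylase (0.0999). Fosl1 was left out of this step because its response in heterozygous SE did not pass the study's limits.

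Other proteins that form dimers with FOS and JUN moved in a few cases. Of 14 genes of the ATF, BATF, JDP and MAF families, 13 were measured. In mutants with pilocarpine 2 were higher and 0 lower, Maff and Atf4, and in heterozygous SE 4 were higher, Atf3, Maff, Atf4 and Mafk, and 1 was lower, Batf3 (log2 fold change -0.22). Higher calls made up 0.871% of all probe sets in the mutants and 5.08% in heterozygous SE, and lower calls 0.965% and 6.93%. The list had a median log2 fold change of 0.04 in the mutants and 0.02 in heterozygous SE, against -0.004 and -0.026 over all probe sets. Atf3, a stress-induced partner of JUN, lay at 7.17 to 7.32 (log2) in mutants with pilocarpine, at 6.70 to 6.80 in mutant controls, at 10.08 to 10.83 in heterozygous SE and at 6.73 to 6.81 in heterozygous controls. Its log2 fold change was 0.46 in the mutants and 3.69 in heterozygous SE, a difference of -3.23 ± 0.19 (adjusted p = 1.24e-06). The estimate was beyond that of every FOS and JUN gene, with an interval (-3.65 to -2.82) that overlapped those of Fosb (-3.17 to -2.28) and Fos (-3.00 to -2.25). Maff, a small MAF protein without an activation domain, rose by 0.99 in the mutants and by 3.37 in heterozygous SE, with a difference of -2.38 ± 0.15 (adjusted p = 2.22e-06). Atf4 and Mafk also responded less in the mutants, with differences of -0.59 and -0.51.

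Of 18 genes of factors that act at the Fos promoter, all measured, 2 were higher and 0 lower in mutants with pilocarpine, against 0.871% and 0.965% of all probe sets. In heterozygous SE 4 were higher and 2 lower, against 5.08% and 6.93%. Crem, a member of the CREB family, rose by a log2 fold change of 0.45 in the mutants and 0.65 in heterozygous SE. Elk4, a partner of SRF, rose by 0.26 and 0.39. For Crem the difference of the responses was -0.20 (95% confidence interval -0.39 to -0.018, adjusted p = 0.26) and for Elk4 -0.14 (-0.3 to 0.021, adjusted p = 0.399), and neither passed the test. Srf and Stat3 were also higher in heterozygous SE, by 0.64 and 0.34, and Atf1 and Creb1 were lower, by log2 fold changes of -0.36 and -0.16. Elk1 was the only gene of the list with a positive difference of the responses that passed, 0.50 ± 0.11 (adjusted p = 0.0273), where 1.47% of all probe sets did. Neither response of Elk1 was called by limma, 0.28 in the mutants (adjusted p = 0.1) and -0.22 in heterozygous SE (adjusted p = 0.0949). Srf passed as lower, with a difference of -0.66 (adjusted p = 0.000236), where 2.12% of all probe sets did. The median of the list was -0.01 in the mutants and 0.007 in heterozygous SE.

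Of 17 genes of kinases that reach AP-1, 11 were measured, and in heterozygous SE 0 were higher and 2 lower (limma), where 5.08% and 6.93% of all probe sets were, Mapk7, which encodes ERK5, with a log2 fold change of -0.47 and Mapk14, which encodes p38 alpha, with -0.18. In the mutants 0 of the 11 were called in either direction with limma, and 2 had an unadjusted p under 0.05. Mapk7 lay at 8.65 to 8.71 in mutants with pilocarpine, 8.76 to 8.79 in mutant controls, 8.24 to 8.45 in heterozygous SE and 8.74 to 8.81 in heterozygous controls, and the difference of its responses was 0.37 ± 0.077 (adjusted p = 0.0195). Of 6 genes of AP-1 protein turnover, Fbxw7, a ubiquitin ligase subunit that recognises JUN, was higher in heterozygous SE by 0.31 (adjusted p = 0.00251), the only one of the 6 called there, against 5.08% of all probe sets called higher, and with limma 0 were called in the mutants, where 1 had an unadjusted p under 0.05. These are levels of transcripts, and the kinases act by phosphorylation, which the arrays do not measure.

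Of 21 genes known as AP-1 targets in various tissues, 19 were measured. In the mutants 2 were higher and 0 lower, against 0.871% and 0.965% of all probe sets, and in heterozygous SE 2 were higher and 0 lower, against 5.08% and 6.93%, with medians of 0.08 in the mutants and 0.05 in heterozygous SE. Plaur, the urokinase receptor, lay at 6.29 to 6.53 (log2) in mutants with pilocarpine, 6.11 to 6.35 in mutant controls, 7.62 to 8.12 in heterozygous SE and 6.26 to 6.32 in heterozygous controls. It rose in heterozygous SE by 1.64 ± 0.11 (adjusted p = 1.13e-06), and the difference of its responses was -1.46 ± 0.16 (adjusted p = 0.000236). Ccl2, a chemokine that attracts monocytes, lay at 7.85 to 8.07 in mutants with pilocarpine, 5.98 to 6.13 in mutant controls, 7.34 to 8.26 in heterozygous SE and 6.28 to 6.38 in heterozygous controls. Its rise was 1.91 in the mutants (± 0.16, adjusted p = 7.94e-05) and 1.43 in heterozygous SE (± 0.16, adjusted p = 8.36e-05), and the difference of 0.48 did not pass (95% confidence interval -0.023 to 0.98, adjusted p = 0.344). Ccnd1, which encodes cyclin D1, was higher in mutants with pilocarpine than in mutant controls by 0.23 (adjusted p = 0.0432), and lower in mutant controls than in heterozygous controls by a log2 difference of -0.40 (adjusted p = 0.0131). The matrix metalloproteinase genes Mmp3, Mmp9, Mmp10 and Mmp13 had log2 fold changes between -0.03 and 0.05 in heterozygous SE and were not called. Over heterozygous SE and heterozygous controls they lay between 4.77 (Mmp3) and 6.62 (Mmp9, log2), below the lowest array median of 6.78. For genes this dim, the lack of a response cannot be told apart from a lack of signal.

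**Figure D4:**
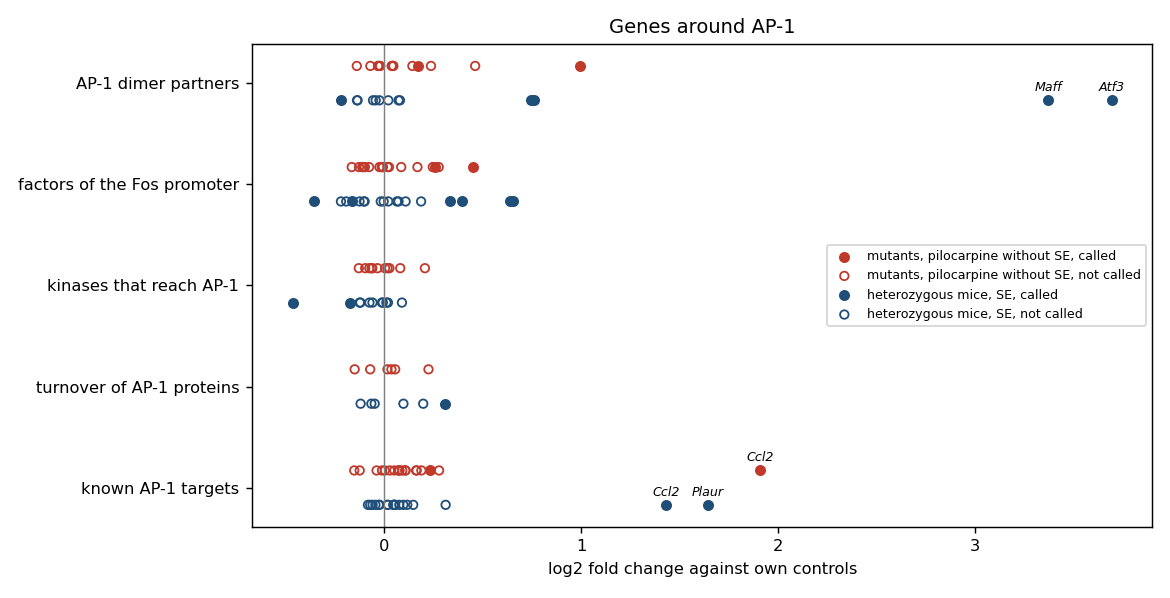
Log2 fold change against controls of the same genotype for the measured genes of 5 lists around AP-1, in Srf mutants with pilocarpine without SE (red, upper row of each list) and in heterozygous mice with SE (blue, lower row). Filled points were called at an adjusted p under 0.05 from limma; Atf3 and Maff stand at 3.69 and 3.37 in heterozygous SE, and Ccl2 is the rightmost red point with 1.91.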

How the data were processed

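Hippocampal RNA of 12 mice was hybridised to 1 array each. The authors ran Affymetrix Expression Console and deposited log2 values made by RMA (robust multiarray average), which corrects background, brings the arrays to 1 distribution and summarises the probes. Versions are not given in the sources used here. From 35556 probe sets, those with an annotated gene (23410) entered the tests. For a gene with several probe sets of its own, the brightest on average stood for it.

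Group means were fitted with limma 3.58.1 (lmFit, eBayes; R 4.3.3), which the study's methods also name, without a block. Benjamini-Hochberg adjustment ran over all 23410 probe sets, with 0.05 as the threshold. Intervals are 95% confidence intervals of this fit. With simulated data, the recovery of known changes was checked for heterozygous SE against heterozygous controls. Neither the coverage of the intervals nor the difference of the responses was checked in this way. Promoters were searched with Python 3.11.15. The alternatives were other normalizations, filters, fits, a replicate block, the Xist level as a covariate and leaving out each array.

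Groups come from the sample titles. The text names all 7 members, at most 4 called genes per list and direction, the 3 nearest genes of each member past the study's limits in heterozygous SE, and Srf. The metalloproteinase genes and the markers were added after their values were seen. Members, lists and tests were chosen with earlier results of these data known. The number of arrays limits the precision.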

Additional observations from a re-analysis of the deposited data

Results flagged for a closer look

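The pilocarpine response differed between the genotypes in 6 AP-1 genes by the interaction test of limma (adjusted p under 0.05). All 6 passed as lower, as did 2.12% of all probe sets. The difference of the log2 fold changes, mutants without SE minus heterozygous mice with SE, was -2.62 for Fos, -2.72 for Fosb, -1.60 for Fosl2, -1.37 for Jun, -2.09 for Junb and -0.83 for Jund. In each of the 6 genes all 3 mutants with pilocarpine lay below all 3 heterozygous mice with SE, as in 12.8% of all probe sets. The genotype and the presence of SE cannot be told apart in these arrays. Groups of 3 mice are too small for a search for single outlying animals.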

How the results depend on the processing

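The number of AP-1 genes called stayed within 1.5 times the main count in all comparisons and alternatives, with 1 exception: at the study's stricter limits, 3 genes were higher in mutants with pilocarpine, against 5 at an adjusted p under 0.05. Those lost were Fosl2 and Jun. At an adjusted p under 0.05, Fos, Fosb, Fosl2 and Junb kept direction and call in every other alternative run. The rise of Jun in the mutants was lost after median centring (adjusted p = 0.0529 from limma), over all probe sets with or without a gene, with only the compared groups, with a replicate block by animal number (0.0584) and without 4 single arrays, and its log2 fold change ranged from 0.26 to 0.33. Jund gained a call in the mutants in 6 settings (lowest adjusted p = 0.0279). Fosl1 lost its lower level against heterozygous SE in 4 settings and gained a smaller response without heterozygous SE replicate 3.

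Animal numbers were not taken to pair the mice. For this check, the mean of its group was subtracted from each array, probe set by probe set. These deviations correlated above 0.1 between same-numbered arrays of different groups in 5 of 18 pairs (range -0.312 to 0.323). Among them were all 3 pairs of mutant controls with heterozygous SE (0.191, 0.323 and 0.123), and not all 3 pairs of any other combination of groups. Mutant controls and heterozygous SE were not compared directly, but both enter the difference of the responses. The replicate block, with a log2 fold change of 0.29 for Jun, changed no other member's call. Over all probe sets, the numbers higher and lower in mutants with pilocarpine were 204 and 226 and ranged from 108 to 268 and from 40 to 422 over the alternatives, and those between mutant and heterozygous controls were 9 and 19, with ranges of 1 to 24 and 6 to 23. The number lower in heterozygous SE was 1623 (1051 to 2256), the number with a higher response in the mutants 344 (181 to 584), and the number higher in mutants with pilocarpine than in heterozygous SE 1261 (748 to 1926). Fosl1 fell out when dim probe sets were left out, and each member had only 1 probe set, so that other probe sets could not be tried. With 3 mice per group, p values set a difference of groups against the spread between these mice. In the main fit, limma pools that spread over the 4 groups and moderates it with that of the other probe sets.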
